A study of Homo sapiens with 3 samples.

Results

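The genes described here are the 81 cytosolic ribosomal protein genes among the 43913 gene symbols of the counts, chosen by symbol alone: RPL or RPS followed by digits and at most a suffix A, X or L, together with RPLP0, RPLP1, RPLP2 and RPSA. Pseudogenes, the RPS6K kinases and the RPS4Y genes were left out. All 81 were listed in both monoculture libraries and 80 in the coculture library, where RPL10L was missing. Of the 81, 46 encode proteins of the large subunit (3 of them the stalk), 31 proteins of the small subunit, and 4 are paralogs with a final L in the symbol (RPL3L, RPL10L, RPL39L and RPS27L).

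Cytosolic ribosomes translate nearly all the proteins of a cell from a large and a small subunit, each a ribosomal RNA core carrying single copies of most ribosomal proteins. The mRNAs of these proteins are short and abundant, and most begin with a terminal oligopyrimidine (TOP) motif, a C at the cap followed by an unbroken run of pyrimidines, through which mTOR signalling controls their translation as a group. A plasma cell is a secretory cell, and a multiple myeloma cell is its malignant counterpart.

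Single-cell RNA was captured by Drop-seq, in which each cell meets a barcoded bead in a droplet and captured mRNA molecules are counted from their poly(A) ends by their unique molecular identifiers (UMIs). Each of 3 conditions gave 1 library. The established human multiple myeloma line MM.1S was cultured alone, the established human bone marrow stromal line HS-5 was cultured alone, and the pair was cocultured for 4 h. No treatment was given in any condition, and the labels name the lines without a genotype. The question was how each line alone compares with the same line beside the other.

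The libraries held 3994, 3865 and 3963 barcodes, of which 3947, 3732 and 3856 had at least 200 detected genes and entered the sums. Between 39 and 76 barcodes were shared by a pair of libraries, and leaving them out moved none of the medians or counts below past its counting error. Cells of the coculture were assigned to a line by 82 MM.1S and 231 HS-5 genes that differed at least 50-fold between the monocultures and include no ribosomal protein gene. This gave 1645 MM.1S cells, 2108 HS-5 cells and 101 doublets, 2.62% of the library, which were left out with 2 cells of too few line-specific UMIs. The summed depth was 10433017 UMIs in MM.1S monoculture, 1329435 in MM.1S coculture cells, 6142273 in HS-5 monoculture and 2483131 in HS-5 coculture cells, with medians per cell of 2201, 669, 971.5 and 957 UMIs. Most plasma cell markers followed the labels (9 of 10 higher in the MM.1S monoculture, JCHAIN at 6664 against 0.977 CPM), although SDC1 was higher in HS-5, at 135 against 38.1 CPM, and CD79A was at or near 0 throughout. All but 1 of 10 stromal markers were higher in HS-5 monoculture, FN1 being the exception at 810 CPM in MM.1S and 252 in HS-5. TAGLN was near 0 in every group. Between the coculture's cells, 8 of 10 plasma cell markers were higher in MM.1S, as were 2 stromal markers, FN1 (2223 against 280 CPM) and TAGLN. Some of these markers meet the limits of the line-specific genes used for the assignment. From the line-specific genes, free RNA of the other line made up 2.21% of UMIs in MM.1S coculture cells and 1.11% in HS-5 coculture cells.

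Levels below are counts per 1000000 UMIs (CPM) of UMIs summed over the cells of a group. Each captured mRNA gives its UMI from the end, so levels were not divided by transcript length. Differences are log2 ratios of CPM, to which a pseudocount of 1 was added. Since a condition is 1 library, differences between groups have no replicate check and were not tested. The 95% intervals are exact (Poisson for CPM, Clopper-Pearson for shares) and hold counting error alone. A median is over the members that average 10 CPM or more in the comparison.

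The transcript starts of 8 genes are shown because these genes carry the extremes of the comparisons below (RPL10, RPS27, RPS25, RPL3, RPL9 and RPLP1) or a contrast between a gene and its paralog (RPS27 with RPS27L, and RPL39). Each line gives 10 bases before the annotated start and 20 after it on the strand of the gene, from RefSeq on GRCh38.p14, and capitals mark the pyrimidine run that begins with a C at the start.
RPL10, chrX:154398367-154398396, plus strand: ggaggagcgcCTCTTTCCCTTCggtgtggt
RPS27, chr1:153990752-153990781, plus strand: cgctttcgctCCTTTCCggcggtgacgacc
RPS25, chr11:119018324-119018353, minus strand: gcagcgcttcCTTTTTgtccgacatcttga
RPL3, chr22:39319604-39319633, minus strand: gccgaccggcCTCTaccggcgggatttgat
RPLP1, chr15:69452808-69452837, plus strand: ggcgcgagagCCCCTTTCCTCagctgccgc
RPL39, chrX:119791611-119791640, minus strand: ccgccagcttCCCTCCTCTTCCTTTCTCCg
RPL9, chr4:39458903-39458932, minus strand: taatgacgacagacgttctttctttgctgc
RPS27L, chr15:63157458-63157487, minus strand: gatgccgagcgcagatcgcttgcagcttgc

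The run was 12 bases long in RPL10, 11 in RPLP1, 19 in RPL39, 7 in RPS27 and 6 in RPS25, and 4 in RPL3. RPL9 and the paralog RPS27L had none at the annotated start. With a TOP start taken as a C followed by at least 4 bases C or T on the gene's own strand, 46 of the 64 members with an entry in the RefSeq promoter table had one, or 71.9%, against 5.14% of all 27305 genes in that table. The annotated start need not be the start used in these cells.

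The ribosomal protein genes took 18.7% of all UMIs in MM.1S monoculture (interval 18.7 to 18.7%, 1952231 UMIs) and 11.9% in MM.1S cells of the coculture (11.9 to 12.0%, 158768 UMIs). HS-5 cells had 7.42% when alone (7.40 to 7.44%) and 8.50% in coculture (8.46 to 8.53%). The share was therefore lower in coculture for MM.1S and higher for HS-5, and in both conditions MM.1S had the higher share.

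The difference between the groups was present at every depth compared. MM.1S coculture cells of under 500 UMIs had 12.0% and those of 4000 UMIs or more had 12.3%, with the bins between at 11.9 to 12.0%. MM.1S monoculture cells ranged from 16.9% (77 cells of 500 to 1000 UMIs) to 19.2%. At the shared depth of 500 to 1000 UMIs the shares were 16.9% and 12.0% in MM.1S and 6.60% and 8.42% in HS-5, monoculture first. In HS-5 monoculture the share went from 6.85% in cells under 500 UMIs and 6.60% at 500 to 1000 up to 8.26% at 4000 UMIs or more, where 20 HS-5 coculture cells had 9.46%.

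**Figure D1:**
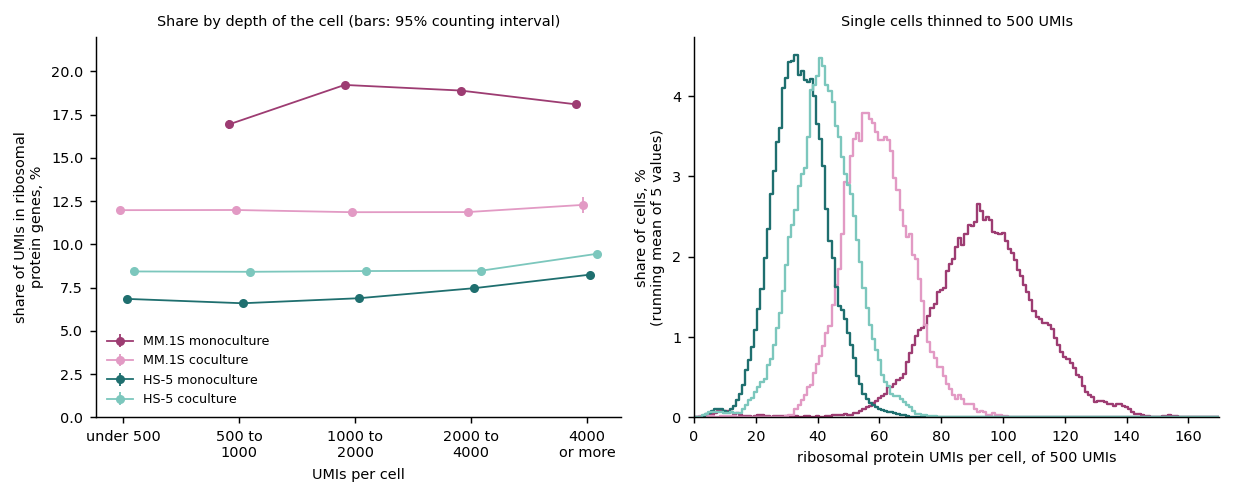
Left, the share of UMIs in ribosomal protein genes (%) by UMIs per cell for the 4 groups, with 95% counting intervals; right, the distribution over single cells of ribosomal protein UMIs after each cell was thinned to 500 UMIs. MM.1S monoculture lies at 16.9 to 19.2% and MM.1S coculture at 11.9 to 12.3% in every bin, and the right panel shows whole populations displaced, with medians of 94, 59, 34 and 42 UMIs.

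Single cells showed the difference as a displacement of the population. With each cell thinned to 500 UMIs, the median was 94 ribosomal protein UMIs in 3947 MM.1S monoculture cells (the 5th to the 95th percentile 67 to 123) and 59 in 1199 MM.1S coculture cells (43 to 78). Of these coculture cells, 1196 lay below the monoculture median, and 75.6% lay below its 5th percentile. In HS-5 the 3515 monoculture cells had a median of 34 (21 to 50) and the 1808 coculture cells one of 42 (26 to 58). The HS-5 populations overlapped more: 19.1% of coculture cells were above the monoculture's 95th percentile, against 3.87% of the monoculture's own cells. Thinning left out 446 MM.1S and 300 HS-5 coculture cells, 217 HS-5 monoculture cells and no MM.1S monoculture cell. The cells of a library share their preparation and are not replicates.

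The order of the genes was much the same in every group. The stalk protein gene RPLP1 was highest in MM.1S, at 18144 CPM alone and 9589.8 in coculture, and RPS6, the S6 kinase substrate of the small subunit, was among the next, at 10752 and 6026 CPM. In HS-5 the large subunit gene RPL34 was highest, at 3592 CPM in monoculture and 4501 in coculture, again with RPS6 second. Over the 77 members with enough counts, Spearman's rho of the levels was 0.93 between MM.1S monoculture and coculture, 0.97 between HS-5 monoculture and coculture, 0.85 between the monocultures and 0.92 between the lines within the coculture, a description over genes that share libraries. At least 1000 CPM was reached by 52 members in MM.1S monoculture, 45 in MM.1S coculture, 33 in HS-5 monoculture and 35 in HS-5 coculture.

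At the bottom of the order stood 7 members of the core subunits under 100 CPM in MM.1S monoculture: RPL7, RPL9, RPL17, RPL21, RPL36A, RPS10 and RPS26, from 5.08 CPM (RPS26) to 54.7 CPM (RPS10). They were picked out after their levels were seen. Between 73.3% and 96.0% of the 50-base windows in the last 300 bases of their transcripts occur unchanged in transcripts of other genes. How reads matching several places were counted is not given in the sources used here, so the levels of such genes are uncertain.

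MM.1S cells had lower ribosomal protein levels in coculture across both subunits. Of 78 members averaging 10 CPM or more, 64 were lower in coculture and 14 higher, with a median log2 ratio of -0.62, while the median of all 7838 genes was 0.24. Of the members, 17 were at least 2-fold lower (21.8%, where the background was 5.79% of all genes) and 3 at least 2-fold higher (3.85%, where it was 19.0%). Counting intervals lay below 0 for 61 members (78.2%, where the background was 19.2% of all genes) and above 0 for 11 (14.1%, where it was 40.4%). Since intervals are narrow at high levels, genes of at least 1000 CPM were also compared: intervals lay below 0 for 87.5% of 48 members and 46.8% of 62 other nuclear genes. Relative to the median of all genes, 68 of 78 were below it. With only cells of 500 to 1000 UMIs the median was -0.38, against 0.17 for all genes. There 12 members, or 15.4%, were at least 2-fold lower, against 15.5% of all genes. The MM.1S monoculture had 77 cells and 72932 UMIs in that setting, so genes near 10 CPM rest on very few UMIs. Such genes pass 2-fold more readily by counting error, so the near-equal shares do not settle whether the members differed from the background.

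RPL10, which joins the large subunit late in its assembly, had 676 CPM in MM.1S monoculture and 85.8 CPM in coculture, a log2 ratio of -2.96 (interval -3.26 to -2.71). RPS27 of the small subunit had 355 and 48.1 CPM (-2.86). RPL30 had 200.4 and 32.3 CPM (-2.59). For each of the 3, the level in MM.1S coculture cells was nearer to the HS-5 levels, 34.7 and 41.9 CPM for RPL10 and 38.3 and 41.1 CPM for RPS27, than to that in MM.1S monoculture. RPS25, a small subunit protein needed for initiation at some viral internal entry sites, had 1136 and 188 CPM (-2.59), and RPL3, a protein close to the peptidyl transferase centre, had 1064 and 234 CPM (-2.18). Of the 50-base windows, 65.7% were shared with other genes in RPL10, 75.3% in RPS27, 61.4% in RPS25 and 78.1% in RPL3. RPL30 had 4.78%. Levels of genes with many shared windows are uncertain for the reason given above.

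Among members averaging 100 CPM or more, the 5 highest ratios in MM.1S belonged to RPL9, RPS2, RPL5, RPL7A and RPL28. RPL9 had 48.1 CPM in monoculture and 165 in coculture, a log2 ratio of 1.76 (1.55 to 2.01), which placed it beside HS-5 at 183 and 175 CPM. RPS2, at the mRNA entry channel of the small subunit, had 584 and 1043 CPM (0.84). RPL5, which binds 5S ribosomal RNA and, outside the ribosome, the p53 regulator MDM2, had 1029 and 1539 CPM (0.58). Its partner RPL11 went the other way, with 3589 and 1644 CPM (-1.13). RPL7A had 872 and 1219 CPM (0.48) and RPL28 had 520.0 and 675 CPM (0.38). Of the 3 members at least 2-fold higher, the other two were RPS10 (1.29) and RPL21 (1.10), both low in level. Windows found in other genes made up 96.0% in RPL9, 65.3% in RPS2, 48.2% in RPL5, 71.7% in RPL7A and 12.7% in RPL28. Where that share is high, the level is uncertain.

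**Figure D2:**
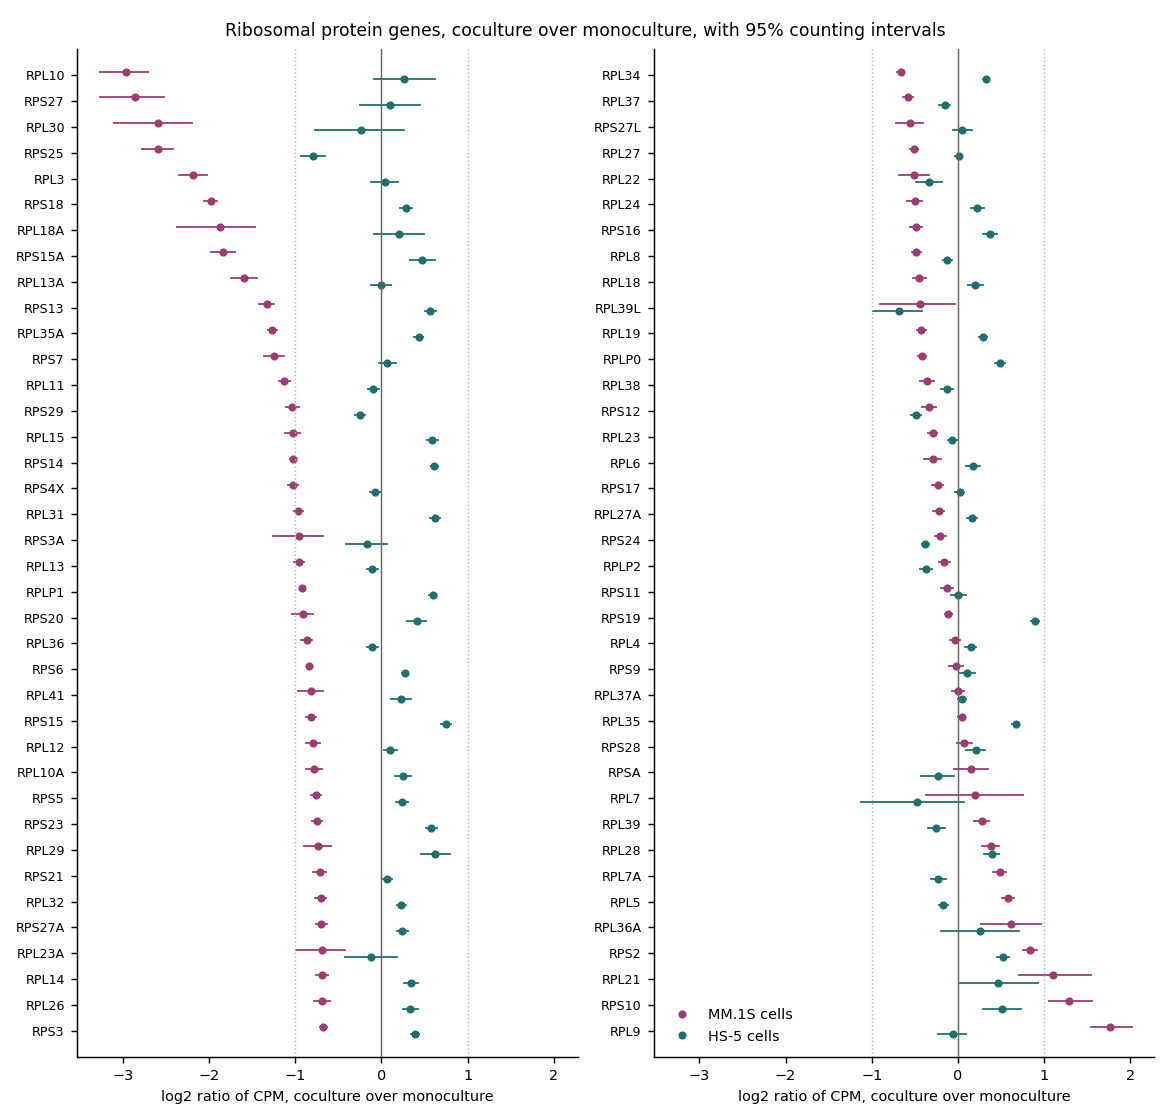
Log2 ratio of CPM, coculture over monoculture, for the ribosomal protein genes named on the axis, with at least 10 CPM in both comparisons, in MM.1S and HS-5 cells, ordered by the MM.1S value; lines are 95% counting intervals and dotted lines mark 2-fold. MM.1S values reach from -2.96 (RPL10) to 1.76 (RPL9), whereas no HS-5 value passes 2-fold.

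HS-5 cells had slightly higher levels in coculture, and over all cells the shift was smaller than that in MM.1S. In cells of 500 to 1000 UMIs, the members' medians were 0.41 in HS-5 and -0.38 in MM.1S, where all genes had 0.02 and 0.17. Set against all genes, the MM.1S shift was still the larger, though it rests on 77 monoculture cells. Over all HS-5 cells, 52 of 77 members were higher and 25 lower, with a median log2 ratio of 0.16 against -0.04 for all 8812 genes. No member passed 2-fold in either direction, where the background was 1.19% of all genes higher and 1.80% lower. Counting intervals lay above 0 for 41 members (53.2%, where the background was 20.1% of all genes) and below 0 for 19 (24.7%, where it was 23.2%). At 1000 CPM or more they lay above 0 for 58.8% of 34 members and 49.3% of 71 other nuclear genes. The standard deviation of the ratios over members was 0.34, against 0.86 in MM.1S.

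RPS19, a small subunit protein whose gene is mutated in Diamond-Blackfan anaemia, had 1682 CPM in HS-5 monoculture and 3125 in coculture, a log2 ratio of 0.89 (0.85 to 0.94). RPS15 had 873 and 1465 CPM (0.75), and RPL35 had 1897 and 3018 CPM (0.67). RPL29 (126 and 195 CPM) and RPL31 (1135 and 1745 CPM) followed, both at 0.62. The 5 lowest at an average of 100 CPM or more were RPS25, at 359 and 207 CPM (-0.79), then RPS12 (-0.49), RPS24 (-0.38), RPLP2 (-0.37) and RPL22 (-0.34). At that level, RPS25 was the only gene among the 5 lowest in both lines.

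The size of the HS-5 difference depended on which cells and members were taken. With only cells of 500 to 1000 UMIs, a setting chosen after the data were seen, 14 members (18.2%) were at least 2-fold higher, against 8.65% of all genes, led by RPS15 (1.84), RPS19 (1.73) and RPL10 (1.63). RPL7 and RPL39L were at least 2-fold lower. Among transcripts of 200 to 1000 bases in these cells, 21.4% of the members and 27.2% of other genes were at least 2-fold higher. By that share the members were not above genes of their length, whereas their median was slightly higher (0.53 against 0.48). With every cell thinned to 500 UMIs, the median was 0.34 and 9 members (11.7%) were at least 2-fold higher, against 5.71% of all genes. In contrast, over the 22 members with under 10% of windows shared the median was 0.00, with 11 higher and 11 lower.

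Ribosomal protein mRNAs are short, and transcript length moved with both comparisons. The median transcript of the 81 members had 709 bases, and 59 lay between 200 and 1000 bases. Among all other nuclear genes in MM.1S, the median log2 ratio went from -0.16 for 869 genes of 200 to 1000 bases, through -0.06 and 0.29, to 0.54 for 2254 genes of 4000 bases or more. Members of 200 to 1000 bases were lower than these short genes, with a median of -0.67 over 57, and 21.1% of them were at least 2-fold lower against 14.5% of the other short genes. Among short genes of at least 1000 CPM the medians were -0.67 for 36 members and -0.32 for 28 others. In cells of 500 to 1000 UMIs the short members still had the lower median (-0.39 against -0.14), but the shares turned round. There 15.8% of them and 22.6% of other short genes were at least 2-fold lower. With 77 monoculture cells in that setting, the share among genes of low level holds much counting error.

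In HS-5 the length trend had the opposite sign, and over all cells the members were not above other short genes. Other genes of 200 to 1000 bases had a median of 0.32 over 833, and members of the same length had 0.23 over 56. At 1000 CPM or more the medians were 0.23 for 23 members and 0.67 for 22 other short genes. In cells of 500 to 1000 UMIs, over all levels from 10 CPM, the medians were 0.53 for 56 short members and 0.48 for 834 other short genes. The part of transcript length in the members' ratios was not tested beyond these classes.

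Lists of related genes showed which of this was shared. The 3 stalk genes recruit translation factors to the large subunit. In MM.1S, RPLP1 was at 18144 and 9589.8 CPM (-0.92), RPLP0 at 4292 and 3208 (-0.42) and RPLP2 at 2039 and 1826 (-0.16). In HS-5, RPLP1 (0.60) and RPLP0 (0.49) were higher in coculture and RPLP2 (-0.37) lower. RPSA, the small subunit protein also known as the laminin receptor precursor, had 162 and 180 CPM in MM.1S, within counting error, and 144 and 123 CPM in HS-5 (-0.23), which turned to 0.50 in cells of 500 to 1000 UMIs and to 0.14 with cells thinned to 500 UMIs. The large subunit had a median of -0.51 in MM.1S and 0.16 in HS-5, and the small subunit -0.73 and 0.22.

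Other mRNAs listed as having a TOP start, most of them coding for translation factors and partners of the ribosome, had medians of -0.18 in MM.1S and 0.02 in HS-5 over 17 of 19 listed genes. The starts of these listed genes were not looked up here. In MM.1S, 8 of the 17 were higher and 9 lower, none at least 2-fold lower. Among the lowest were BTF3 (-0.83), a nascent-chain-associated factor, and EIF3H (-0.62). The highest were TPT1 (1.39), HNRNPA1 (1.20) and NAP1L1 (0.90). Among members, the 46 with a TOP start had a median of -0.68 and those with another annotated start -0.63, so the annotated motif did not separate them. The 6 snoRNA host genes likewise listed as having a TOP start had a median of -0.88 in MM.1S and -0.07 in HS-5. Mitochondrial ribosomal proteins, which serve the separate ribosomes of mitochondria, had medians of -0.17 in MM.1S and 0.28 in HS-5 over 75 genes.

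The symbols of processed copies were higher in coculture in both lines. The tables hold 864 pseudogene symbols named after 73 of the members, and their share of UMIs was 0.527% in MM.1S monoculture, 1.01% in MM.1S coculture, 0.613% in HS-5 monoculture and 0.795% in HS-5 coculture. Over the 63 of at least 10 CPM, the median in MM.1S was 0.61, with 49 higher in coculture and 14 lower. In HS-5 it was 0.41 over 52. The 3 with the most UMIs were RPS19P3, RPS27AP16 and RPL21P16. RPS19P3 had 528 CPM in MM.1S monoculture, 1717 in MM.1S coculture, 651 in HS-5 monoculture and 1437 in HS-5 coculture, and RPL21P16 had 313, 1155, 493 and 785 CPM where its parent RPL21 had 21.6, 47.4, 19.4 and 27.0. RPS27AP16 had 604, 1025, 680 and 845 CPM.

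Adding the copies to their parents left the MM.1S median at -0.49, against -0.62 without them, and raised the MM.1S shares to 19.2% in monoculture and 13.0% in coculture. RPL10 then stood at -1.44 and RPL3 at -1.37, whereas RPS25 (-2.58), RPS27 (-2.69) and RPL9 (1.54) moved little. RPS19 turned from -0.11 to 0.26 in MM.1S when RPS19P3 and its other copies were added. Whether the copies' UMIs come from the parents' mRNAs was not tested. In MM.1S, ratios were more widely spread among members with 40% or more of their windows shared, with a standard deviation of 1.16, against 0.58 for members under 10%. RPL30, with 4.78% of its windows shared, was an exception in MM.1S at -2.59. In HS-5 coculture over monoculture the standard deviations were 0.35 and 0.36. Between the lines they were 1.25 and 0.90 in the monocultures and 0.48 and 0.57 in the coculture. The MM.1S medians of these 2 classes were -0.70 and -0.70, and 21 of the 22 members under 10% were lower in MM.1S coculture cells. The class under 10% still holds RPS19 (3.19% shared) and RPL13A (0%), whose MM.1S ratio went from -1.59 to -0.55 with copies added. Few shared windows therefore did not mark only genes that the copies leave unmoved. Windows were searched in 1 transcript per gene.

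The 4 paralogs with a final L stayed at low levels or apart from their relatives. RPL3L, the striated muscle form of RPL3, had 22, 1, 5 and 2 UMIs in MM.1S monoculture, MM.1S coculture, HS-5 monoculture and HS-5 coculture, and RPL10L, a testis form of RPL10, had 5 and 1 UMIs in the monocultures and 0 in coculture cells. Every comparison of these paralogs has 5 or fewer UMIs in at least 1 of its groups, and no ratio is given. RPL39L had 50.6 and 36.9 CPM in MM.1S and 86.9 and 53.6 CPM in HS-5, lower in coculture in both lines (-0.45 and -0.69), and higher in HS-5 than in MM.1S. In cells of 500 to 1000 UMIs its MM.1S ratio turned to 0.33. Its relative RPL39 had 851 and 1028 CPM in MM.1S (0.27) and 574 and 482 in HS-5 (-0.25), with the higher levels in MM.1S, although in monoculture cells of 500 to 1000 UMIs the ratio of HS-5 over MM.1S turned from -0.57 to 0.41. RPS27L, a p53-responsive paralog, had 415 and 281 CPM in MM.1S (-0.56) and 349 and 362 in HS-5 (0.05). Its counted level was above that of RPS27 in every group, and its ratio in MM.1S was smaller in size than the -2.86 of RPS27. Since 75.3% of the windows of RPS27 occur in other genes, the level of RPS27 is uncertain, and so is this order.

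Between the lines, HS-5 had the lower levels of most ribosomal protein genes. In the monocultures 68 of 77 members were lower in HS-5 and 9 higher, with a median log2 ratio of HS-5 over MM.1S of -1.19, whereas all 8734 genes had a median of 0.56. At least 2-fold lower were 47 members, or 61.0%, where the background was 15.3% of all genes, and at least 2-fold higher was 1, RPL9, where it was 38.1%. Within the coculture library the median was -0.34, against 0.17 for all 8894 genes, with 58 members lower and 19 higher. Here 9 members were at least 2-fold lower, against a background of 15.8% of all genes, and none at least 2-fold higher, against 26.1%. The 9 are 11.7% of the members. Scaling by the median of ratios gave 20 members (26.0%) against 19.3% of all genes, and scaling without ribosomal protein and mitochondrial genes 14 (18.2%) against 17.5%, so whether the members' share lay below or above the background depended on the scaling.

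In the monocultures, at an average of 100 CPM or more, the lowest ratios were those of RPL10 (676 CPM in MM.1S and 34.7 in HS-5, log2 ratio -4.25), RPL30 (-3.19) and RPS27 (-3.18), and the highest those of RPL9 (1.91), RPS24 (1984 and 3006 CPM, 0.60) and RPL5 (0.59). RPL10 and RPS27 differed far less within the coculture, at -1.02 and -0.22, where RPS27's interval spanned 0 (-0.69 to 0.25). RPL9, 48.1 CPM in MM.1S monoculture and 183 in HS-5 monoculture, had 165 and 175 CPM in the coculture, a ratio of 0.08. By the parent symbols, the library of MM.1S monoculture therefore stood apart from the other 3 groups for RPL10, RPS27, RPL30 and RPL9. With copies added, RPL10 in MM.1S coculture cells lay between, at -1.44 over MM.1S monoculture, and HS-5 coculture cells were at -1.24 over them. A difference of the MM.1S monoculture library cannot be told apart from one of MM.1S cells alone.

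Within the coculture, where both lines were prepared in 1 library, RPLP1 (9589.8 CPM in MM.1S and 3215 in HS-5, -1.58) and RPS28 (999.7 and 373, -1.42) were among the lowest ratios. The highest at an average of 100 CPM or more were RPS21 (1248 and 1930.2 CPM, 0.63), RPL15 (835 and 1205, 0.53) and RPS24 (1718 and 2309, 0.43). The stalk genes were lower in HS-5 in both settings, RPLP1 at -3.09 and -1.58, RPLP0 at -1.84 and -0.94, and RPLP2 at -1.02 and -1.24, monocultures first. Of the 77 members, 55 were lower in HS-5 in both the monocultures and the coculture and 6 higher in both. Of all genes, 34.0% were lower in HS-5 in the monocultures and 44.0% in the coculture. The share of all genes with the same direction in both was not counted. RPS24 and RPS12 (0.53 and 0.38) were among those higher in HS-5 in both. Spearman's rho between the 2 sets of ratios was 0.48 over the 77 genes, as a description.

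**Figure D3:**
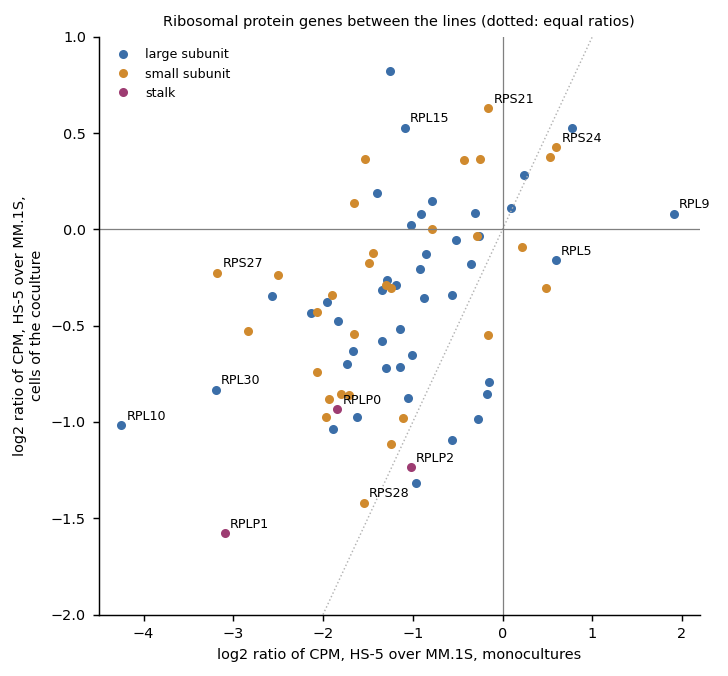
Log2 ratio of CPM, HS-5 over MM.1S, for the ribosomal protein genes, in the monocultures (x axis) and in the cells of the coculture (y axis), coloured by subunit; the dotted line marks equal ratios. Most points lie left of and below 0, and RPL10, RPL30 and RPS27 are far lower on the x axis than on the y axis.

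Restricting both lines to members with under 10% of windows shared gave medians of -1.37 in the monocultures and -0.61 in the coculture. Without that restriction, members of 200 to 1000 bases had a median of -0.30 in the coculture and other genes of that length 0.08. Mitochondrial UMIs were lower in coculture in both lines, with the ribosomal protein share in MM.1S and against it in HS-5: they were 6.82% in MM.1S monoculture, 4.04% in MM.1S coculture, 2.79% in HS-5 monoculture and 2.23% in HS-5 coculture. Keeping only cells under 5% mitochondrial UMIs gave ribosomal protein shares of 19.5%, 12.1%, 7.52% and 8.56%, so the order of the groups was as before. A smaller amount of other mRNA per cell and a larger amount of ribosomal protein mRNA cannot be told apart from shares of UMIs.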

How the data were processed

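Cells of 2 human lines and their 4 h coculture were profiled in 3 Drop-seq libraries, 1 per condition. The files deposited by the authors hold whole-number UMI counts for each gene and barcode, not normalized. The submitters' processing notes name GRCh38, Cell Ranger 3.0.2, UMI-tools 1.0.0, STAR 2.5.3a, featureCounts 1.6.4 and SAMtools 1.9 without their roles. The treatment of reads with several matches is not given in the sources used here.

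From the deposited counts, cells under 200 genes were dropped. Coculture cells with at least 5 UMIs of line-specific genes went to MM.1S where at most 0.2 of these were HS-5 UMIs and to HS-5 where at least 0.8 were, and UMIs were summed and scaled to CPM (python 3.11.15, numpy 2.4.6). Doublets within a line were not removed. Line-specific genes had at least 50 CPM. Positions, lengths and windows come from GENCODE release 29, which holds 97.3% of the symbols, with the shortest principal transcript per gene and windows only for transcripts of at most 2500 bases (75 members). Simulated data with known answers served to check the steps. For MM.1S coculture cells, 3 UMIs are worth 2.26 CPM.

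The members and lists were chosen with earlier results of these data known. Named genes are the 5 highest and 5 lowest ratios in each comparison of coculture with monoculture and the 3 highest and 3 lowest between the lines, at a mean of at least 100 CPM, the stalk genes, RPSA, the paralogs with their relatives, the 3 highest and 3 lowest other TOP mRNAs and the 3 pseudogenes with most UMIs. RPL11, RPS12 between the lines, RPS10, RPL21, the members of highest and lowest level and those past 2-fold at 500 to 1000 UMIs were named after their values were seen. Genes that this rule picks and that are left out of the text and figures are not reported here. Alternatives covered cell filters, depth, weighting, scaling, pseudocounts, minimum levels, doublet limits, line-specific genes, free RNA and copies. Leaving out shared barcodes, the restriction to members with few shared windows, the restriction to 500 to 1000 UMIs and the comparison of counting intervals at 1000 CPM or more were added after seeing the data.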

Additional observations from a re-analysis of the deposited data

Results flagged for a closer look

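The members' median log2 ratio of coculture over monoculture had opposite signs in the lines, -0.62 in MM.1S and 0.16 in HS-5, a difference of -0.78. Among the genes that the naming rule picked for these comparisons, 9 had counting intervals on opposite sides of 0. The rule takes the most extreme ratios of these same comparisons, which favours such genes. Of all genes, intervals lay above 0 for 40.4% and below 0 for 19.2% in MM.1S, and for 20.1% and 23.2% in HS-5. How many of all genes had intervals on opposite sides was not counted. The ratio in MM.1S minus that in HS-5 was -1.58 for RPL31, -1.56 for RPS15, -1.52 for RPLP1, -1.36 for RPL29, -1.01 for RPS19 and -0.91 for RPLP0, which were lower in MM.1S and higher in HS-5 coculture cells. It was 0.75 for RPL5, 0.71 for RPL7A and 0.52 for RPL39, which were higher in MM.1S and lower in HS-5. With 1 library per condition these differences were not tested. With the copies added, RPS19 was higher in coculture in both lines (0.26 and 0.96).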

How the results depend on the processing

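No paired analysis was possible because each condition is 1 library, and for the same reason no replicate could be left out. No median changed sign under any alternative, and no named gene with a ratio past 2-fold changed direction. Of 72 ratios of named genes, 8 changed sign under at least 1 alternative, the largest of them RPL39 between the monocultures, at -0.57. A gene was followed only in the comparisons for which the rule named it. The MM.1S ratio of RPS19, which turned with copies added, is therefore not among the 72. The median for MM.1S coculture over monoculture ranged from -0.86 to -0.38, that for HS-5 coculture over monoculture from 0.00014 to 0.41.

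Scaling by the median of ratios, which removes the shift of all genes, gave medians of -0.86 (MM.1S coculture over monoculture), -1.75 (the lines in monoculture) and -0.51 (the lines in coculture), with 28 members (35.9%, against 9.73% of all genes) at least 2-fold lower in MM.1S coculture and 20 lower in HS-5 within the coculture. Leaving ribosomal protein and mitochondrial genes out of the total gave -0.80 and -1.46 for the first 2, and 14 lower in HS-5 within the coculture.

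Depth moved the HS-5 comparison. With cells of 500 to 1500 UMIs, its median was 0.38 with 12 members at least 2-fold higher (15.6%, against 6.74% of all genes). With 500 to 1000 UMIs it was 0.41, with 14 higher (18.2%, against 8.65%) and 2 lower (2.60%, against 6.56%). Thinning to 500 UMIs gave 0.34 with 9 (11.7%, against 5.71%), and weighting every cell equally 0.31 with 6 (7.79%, against 4.44%). The lines in monoculture then gave -1.42, -1.37, -1.41 and -1.38, each with 2 members at least 2-fold higher in HS-5. Of all genes, 40.2%, 39.2%, 39.7% and 39.2% were at least 2-fold higher there, in the same order. Within the coculture, both depth windows gave 1 member at least 2-fold higher in HS-5. The background there was 26.9% of all genes at 500 to 1500 UMIs and 28.5% at 500 to 1000. MM.1S coculture over monoculture was -0.38 at 500 to 1000 UMIs, where the monoculture had 77 cells. The lines in monoculture gave -1.24 with cells under 5% mitochondrial UMIs, -1.24 at a mean of 50 CPM, -1.14 with no minimum and -0.998 with copies added, where MM.1S coculture over monoculture was -0.49. Members with under 10% of windows shared gave -0.70, 0.00014, -1.37 and -0.61 in the order of the report. The cause of these moves was not tested.

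The share of UMIs in MM.1S monoculture was 18.7% (at least 500 genes), 19.5% (low mitochondrial), 19.1% (500 to 1500 UMIs), 16.9% (500 to 1000), 18.8% (thinned), 18.9% (equal weights) and 19.2% (copies added). In HS-5 monoculture it was 7.49%, 7.52%, 6.68%, 6.60%, 6.92%, 6.91% and 8.03% in that order. In HS-5 coculture it was 8.56%, 8.40%, 8.42%, 8.44%, 8.44% and 9.29% from the second on, and 8.46% with free RNA subtracted, and in MM.1S coculture 12.1% (low mitochondrial), 12.0% (free RNA subtracted) and 13.0% (copies added). In MM.1S coculture cells 3 UMIs are 2.26 CPM, which limits only RPL3L, RPL10L and other members of a few CPM.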
